A study of Mus musculus with 12 samples.

Results

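The genes described here are the 8 genes of transforming growth factor beta (TGF-beta) signalling that the ileal immunology panel measured and that were chosen by name: the ligands Tgfb1, Tgfb2 and Tgfb3, the receptors Tgfbr1 and Tgfbr2, the signal transducers Smad3 and Smad5, and the TGF-beta-induced gene Tgfbi. They are 8 of the 556 genes with values, all 8 had values in each of the 12 mice, and no filter on low values was applied. RNA came from the terminal ileum of male C57BL/6 mice, 3 in each of 4 groups, killed at P50 (week 7 in the sample labels). SPF control mice carried a conventional specific pathogen-free microbiota and received water without antibiotic. SPF PAT mice were colonized SPF mice exposed to a single pulsed antibiotic treatment (PAT), which was tylosin, a macrolide, for 5 days from P5. The paper reports that the diversity and composition of their microbiota stayed altered during the experiment. GF control mice were germ-free and received no antibiotic, and GF PAT mice were germ-free and received the same tylosin course. The paper describes its first tylosin course as reaching the pups through their nursing dams. Autoclaved water was used in all groups. SPF mice descended from purchased breeders and GF mice were bred in-house, so the origin of the mice and colonization cannot be told apart. The paper assigned dams together with their litters to antibiotic or control, so litter lies within treatment. The labels do not say which mice shared a litter. Effects of litter and of PAT therefore cannot be told apart, mice of a group may not be independent, and the p-values measure the spread between these mice only.

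As background, TGF-beta ligands are secreted in a latent form and, once released, bind a complex of the type II receptor Tgfbr2 and the type I receptor Tgfbr1, a kinase. The activated type I receptor phosphorylates Smad2 and Smad3, which enter the nucleus with Smad4 and regulate transcription. Smad5 belongs to the sister branch and is mainly phosphorylated by receptors of bone morphogenetic proteins, which are ligands of the same family. In the gut, TGF-beta is known for inducing regulatory T cells, for directing B cells to IgA, for supporting Th17 cells together with inflammatory cytokines, and for restraining growth of the epithelium.

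Values are normalized counts of reporter probes, which the authors scaled between mice and deposited on a log2 scale. A difference is a difference of mean log2 values between groups, given with its standard error (SE), and a fold is that difference on the linear scale. Group differences were tested with limma across all 556 genes, an adjusted p is the Benjamini-Hochberg value over those genes, and a gene is said to have risen or fallen when its adjusted p was under 0.05. Total counts per mouse ranged from 600308 to 923395. They were 806043, 839510 and 923395 in SPF control mice 2, 7 and 8, and 600308 to 681370 in all other mice. Depth therefore differed with the group, and so did the size factors, 1.19 to 1.25 against 0.83 to 1.07. Before scaling, counts in SPF control and GF control mice overlapped for Tgfbr1 (969 to 1146 against 955 to 1137). They also overlapped for Tgfbr2 (1047 to 1249 against 1047 to 1251), so the order of the receptors rests on scaling. Probes of different genes hybridize with different efficiency, so no level was compared between genes. In bulk tissue, fewer cells of a type and less RNA per cell cannot be told apart.

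Smad3 and Smad5 had the largest differences of the 8 genes in SPF control against GF control and in SPF PAT against SPF control mice. The normalized count of Smad3 in SPF control mice 2, 7 and 8 was 611, 663 and 732. It was 914, 1315 and 1198 in SPF PAT mice 21, 26 and 27, 1245, 1328 and 1234 in GF control mice 37, 38 and 39, and 1109.9, 1153 and 1381 in GF PAT mice 41, 42 and 43. All SPF control mice lay below all mice of the other groups, and the other groups overlapped, with SPF PAT mouse 21 the lowest of these 9 mice. The mean log2 value rose in order from SPF control (9.38 ± 0.13, SD, n = 3) through SPF PAT (10.14 ± 0.27) and GF PAT (10.24 ± 0.17) to GF control (10.31 ± 0.06), and of the neighbours in this order SPF control and SPF PAT alone differed beyond the threshold.

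Smad5 had the same order of group means. Its normalized count was 1013, 924 and 1164 in SPF control mice 2, 7 and 8, and 1522, 1705 and 1873 in SPF PAT mice 21, 26 and 27. It was 1884, 2166 and 1904 in GF control mice 37, 38 and 39, and 1688, 1594 and 1969 in GF PAT mice 41, 42 and 43. The SPF control mice were again the lowest 3 of all, without overlap with any other group. SPF PAT mice lay below GF control mice without overlap, and overlapped with GF PAT mice. Mean log2 values were 10.01 ± 0.17 (SPF control), 10.73 ± 0.15 (SPF PAT), 10.77 ± 0.16 (GF PAT) and 10.95 ± 0.11 (GF control) (SD, n = 3 each), and again SPF control and SPF PAT were the one pair of neighbours that differed beyond the threshold.

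Tgfbi encodes a secreted matrix protein that binds integrins and was first found as a gene induced by TGF-beta. Its normalized count was 5797, 6414 and 7341 in SPF control mice 2, 7 and 8, and 8525, 11896 and 11121 in SPF PAT mice 21, 26 and 27. It was 10080.1, 12128 and 10166 in GF control mice 37, 38 and 39, and 8737, 9771 and 10955 in GF PAT mice 41, 42 and 43. All 9 other mice were above all SPF control mice, and the other 3 groups overlapped, again with SPF PAT mouse 21 the lowest of them. Mean log2 values were 12.66 ± 0.17 (SPF control), 13.26 ± 0.16 (GF PAT), 13.35 ± 0.25 (SPF PAT) and 13.39 ± 0.15 (GF control) (SD, n = 3 each). The neighbours GF PAT and SPF PAT, and SPF PAT and GF control, did not differ beyond their spread, and SPF control against GF PAT was not tested.

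The receptors varied less. The type I receptor Tgfbr1 had normalized counts of 813, 797 and 954 in SPF control mice 2, 7 and 8, and 1031, 1192 and 1155 in SPF PAT mice 21, 26 and 27. Counts were 1025, 1150.5 and 1134 in GF control mice 37, 38 and 39, and 1091, 1114 and 1261 in GF PAT mice 41, 42 and 43. SPF control mice were the lowest 3 of the 12, and the other groups overlapped. Mean log2 values of Tgfbr1 were 9.73 ± 0.14 (SPF control), 10.11 ± 0.09 (GF control), 10.13 ± 0.11 (SPF PAT) and 10.17 ± 0.11 (GF PAT) (SD, n = 3 each), and the last 3 did not differ beyond their spread.

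The type II receptor Tgfbr2 had normalized counts of 1018, 999 and 871 in SPF control mice 2, 7 and 8, and 1122, 1118 and 1119 in SPF PAT mice 21, 26 and 27. It reached 1141, 1261 and 1248 in GF control mice 37, 38 and 39, and 1223, 1090.0 and 1149.7 in GF PAT mice 41, 42 and 43. SPF control mice were once more the lowest 3. The 3 SPF PAT mice lay within an SD of 0.0027 on the log2 scale, closer together than the mice of any other group (SD 0.08 to 0.12), which 3 mice cannot show to be a property of the group. SPF PAT mice lay below all GF control mice and within the range of the GF PAT mice. Mean log2 values of Tgfbr2 rose in order from SPF control (9.91 ± 0.12, SD, n = 3) through SPF PAT (10.13) and GF PAT (10.17 ± 0.08) to GF control (10.25 ± 0.08), and no neighbours in this order differed beyond the threshold.

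The ligand Tgfb1, the isoform known as the main one in the immune system, had another order. Its normalized count was 543, 605 and 389 in SPF control mice 2, 7 and 8, and 454, 385 and 323 in SPF PAT mice 21, 26 and 27. It was 396, 308 and 343 in GF control mice 37, 38 and 39, and 513, 432 and 387 in GF PAT mice 41, 42 and 43. SPF control mice 2 and 7 held the highest values of all, whereas SPF control mouse 8 lay within the range of every other group. Mean log2 values were 8.44 ± 0.18 (GF control), 8.58 ± 0.25 (SPF PAT), 8.78 ± 0.20 (GF PAT) and 8.98 ± 0.33 (SPF control) (SD, n = 3 each). GF control and SPF PAT did not differ beyond their spread, nor did SPF PAT and GF PAT, and GF PAT against SPF control was not tested.

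Tgfb2 and Tgfb3, the isoforms better known from development and stroma, were measured at recovered counts of 28 to 63 and 88 to 135 per mouse, so that counting error weighs more in them than in the other 6 genes. Tgfb2 had normalized counts of 36.1, 30.4 and 39.9 in SPF control mice 2, 7 and 8, 26.3, 57.8 and 57.7 in SPF PAT mice 21, 26 and 27, 33.5, 55.4 and 62.8 in GF control mice 37, 38 and 39, and 54.1, 47.7 and 46.1 in GF PAT mice 41, 42 and 43. Tgfb3 had 73.8, 83.2 and 111 in SPF control mice 2, 7 and 8, 90.3, 142 and 151 in SPF PAT mice 21, 26 and 27, 99.6, 157 and 135 in GF control mice 37, 38 and 39, and 119, 88.5 and 107 in GF PAT mice 41, 42 and 43. In both genes SPF PAT mouse 21 and GF control mouse 37 were the lowest mice of their groups, and the SPF control group overlapped with SPF PAT and with GF control. Mean log2 values were lowest in SPF control mice for both, 5.14 ± 0.20 against 5.47 ± 0.65 to 5.62 ± 0.12 in the other groups for Tgfb2, and 6.46 ± 0.30 against 6.70 ± 0.22 to 7.00 ± 0.33 for Tgfb3 (SD, n = 3 each), and no tested pair of neighbours differed beyond its spread.

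**Figure D1:**
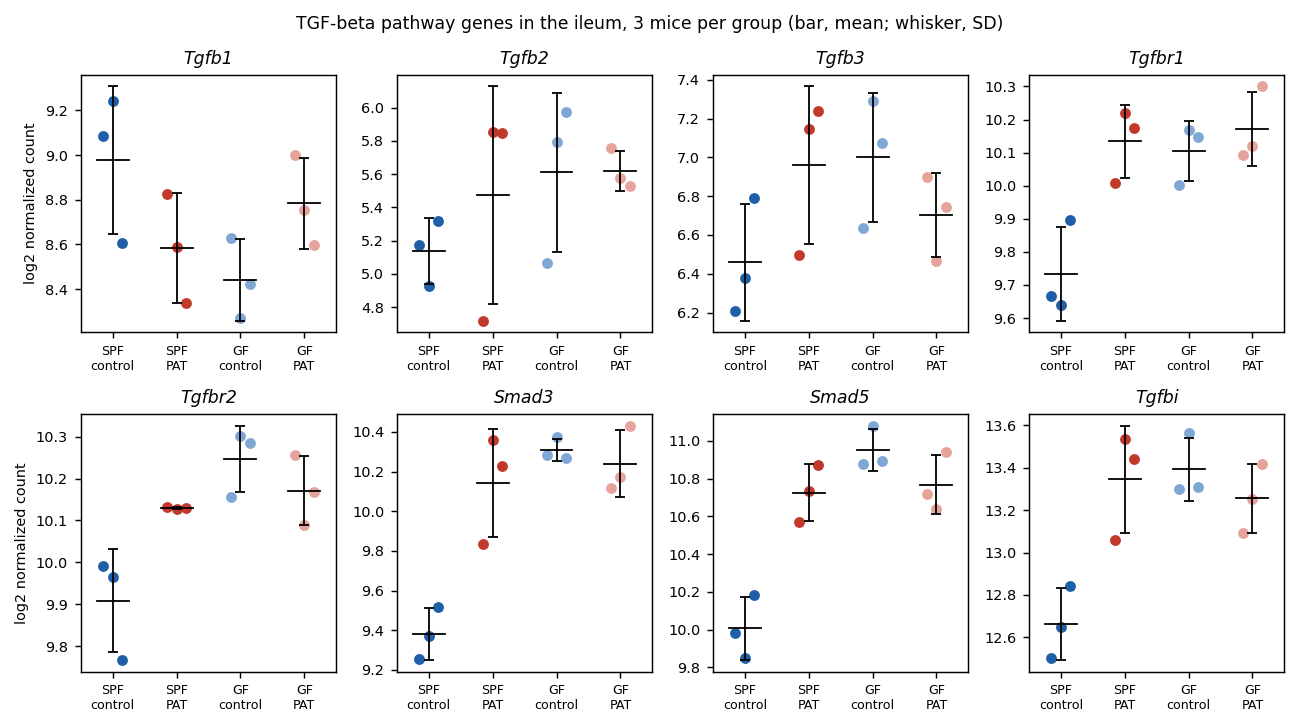
Log2 normalized count (y axis, a separate scale for each gene) of the 8 genes in each of the 12 mice, by group on the x axis; points are mice, bars are means and whiskers are the SD of 3 mice. SPF control mice are the lowest 3 of the 12 for Smad3, Smad5, Tgfbi, Tgfbr1 and Tgfbr2, and hold the 2 highest values for Tgfb1.

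Colonization without antibiotic went with lower levels of the signal transducers, the receptors and Tgfbi. In SPF control mice against GF control mice, 5 of the 8 genes fell and none rose, beside 42.1% of all 556 genes that passed the test in either direction and 22.7% that fell. The same 5 genes did not overlap between the groups, beside 52.2% of all genes. The split of all genes depended on scaling: 108 rose and 126 fell with the authors' scaling, 57 and 169 after median centring, and 72 and 137 under quantile normalization. Smad5 fell by 0.94 on the log2 scale (SE 0.14, 95% confidence interval -1.25 to -0.64, adjusted p = 0.000791), which is a level 1.92-fold lower with a microbiota than without. Smad3 fell by 0.93 (SE 0.15, 95% confidence interval -1.27 to -0.58, adjusted p = 0.00155), or 1.90-fold. Among all 556 differences these were the 40th and 41st lowest.

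Tgfbi fell by 0.73 in the same comparison (SE 0.16, adjusted p = 0.00595), a 1.66-fold lower level. Both receptors fell by less, Tgfbr1 by 0.37 (SE 0.12, adjusted p = 0.0301) and Tgfbr2 by 0.34 (SE 0.10, adjusted p = 0.0242), which are folds of 1.29 and 1.27. No ligand passed the test. The difference of Tgfb1 was 0.54 (SE 0.20, 95% confidence interval 0.09 to 0.99, adjusted p = 0.0555), with the higher mean in SPF control mice, that of Tgfb3 was -0.54 (SE 0.25, adjusted p = 0.107) and that of Tgfb2 was -0.47 (SE 0.32, adjusted p = 0.255). Tgfb1 was thus the one gene of the 8 with a positive difference. The median difference was -0.51 over the 8 genes and 0.08 over all 556 genes.

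The calls of Smad3 and Smad5 held under every other setting of the analysis and with any single mouse left out, with adjusted p from 0.000121 to 0.00875 for Smad3 and from 2.99e-05 to 0.00998 for Smad5. Tgfbi lost its call under quantile normalization alone (difference -0.20, adjusted p = 0.373). The receptors depended on settings and on single mice. Scaling to the total count without the 10 most abundant genes gave Tgfbr1 -0.20 (adjusted p = 0.0751) and Tgfbr2 -0.16 (adjusted p = 0.297), the fit to these 2 groups alone gave adjusted p of 0.0863 and 0.0980, Tukey HSD gave Tgfbr1 0.0633, and quantile normalization gave Tgfbr2 0.105. Tgfbr1 had an adjusted p of 0.0950 without SPF control mouse 2, 0.106 without SPF control mouse 7, 0.0914 without GF control mouse 38 and 0.0825 without GF control mouse 39. Tgfbr2 had 0.0622 without SPF control mouse 8, 0.0785 without GF control mouse 38 and 0.0704 without GF control mouse 39. Tgfb1 came under the threshold without SPF control mouse 8 (difference 0.72, adjusted p = 0.0148), SPF PAT mouse 21 (0.0491) or GF control mouse 37 (0.0492), and also with an intensity trend (0.0444), with voom (0.0471), after the filter on low means (0.0432) and without the 10 most abundant genes in the scaling (0.0473). Its adjusted p ranged from 0.0148 to 0.654 over the alternatives. Tgfb3 passed after median centring (-0.98, adjusted p = 0.0496) and total count scaling (-0.55, adjusted p = 0.0465).

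The early tylosin course was followed at P50 by higher levels of Smads, Tgfbi and the type I receptor in colonized mice. In SPF PAT mice against SPF control mice, 4 of the 8 genes rose and none fell, beside 26.3% of all genes that passed the test in either direction and 14% that rose. This background, 146 genes called and 78 of them higher, depended on single mice: leaving out SPF control mouse 2 or 7 gave 64 (31 higher) or 75 (33 higher), and leaving out mouse 26, 27 or 21 of the SPF PAT group gave 89 (44 higher), 73 (36 higher) or 232 (117 higher). Under total count scaling 135 genes rose and 57 fell, and after median centring 76 rose and 30 fell. With the authors' scaling 68 genes fell. Smad3 rose by 0.76 (SE 0.15, 95% confidence interval 0.41 to 1.10, adjusted p = 0.00829), a 1.69-fold higher level after PAT. Smad5 rose by 0.72 (SE 0.14, 95% confidence interval 0.41 to 1.03, adjusted p = 0.00598), or 1.65-fold. Tgfbi rose by 0.68 (SE 0.16, adjusted p = 0.0158), or 1.60-fold, and Tgfbr1 by 0.40 (SE 0.12, adjusted p = 0.0358), or 1.32-fold.

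Tgfbr2 did not pass the test (difference 0.22, SE 0.10, adjusted p = 0.134), although its groups did not overlap. With it, 5 of the 8 genes did not overlap between SPF PAT and SPF control mice, beside 41% of all genes. The ligands did not pass either: the difference was -0.39 for Tgfb1 (SE 0.20, adjusted p = 0.165), 0.50 for Tgfb3 (SE 0.25, adjusted p = 0.157) and 0.33 for Tgfb2 (SE 0.32, adjusted p = 0.432). The median difference was 0.45 over the 8 genes and -0.02 over all 556. This comparison and that of SPF control with GF control use the same 3 SPF control mice, so opposite signs in them are not independent of each other.

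Smad5 kept its call in this comparison under every alternative (adjusted p 0.000279 to 0.0420), and Smad3 under every alternative but the fit to these 2 groups alone (0.050). Tgfbi lost its call under Tukey HSD (adjusted p = 0.0697), in the fit to these 2 groups (0.0651) and under quantile normalization (0.37 at 0.136), and Tgfbr1 under Tukey HSD (0.0794), in the fit to these 2 groups (0.107) and after median centring (0.0549). Leaving out SPF control mouse 2 or 7 gave Tgfbi an adjusted p of 0.0655 or 0.0514, and leaving out SPF PAT mouse 26 or 27 gave 0.0557 or 0.0588. Tgfbr1 had 0.116, 0.119, 0.108 and 0.110 when the same mice were left out in turn, 0.0502 without GF control mouse 39 and 0.0550 without GF PAT mouse 42. SPF PAT mouse 21 was the lowest of its group in Smad3, Smad5, Tgfbi, Tgfbr1, Tgfb2 and Tgfb3. Without it 6 of the 8 genes rose, with Tgfb3 at a difference of 0.74 (adjusted p = 0.0391) and Tgfb2 at 0.71 (adjusted p = 0.0485). Without SPF control mouse 8, Tgfb1 fell by 0.58 (adjusted p = 0.0492).

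**Figure D2:**
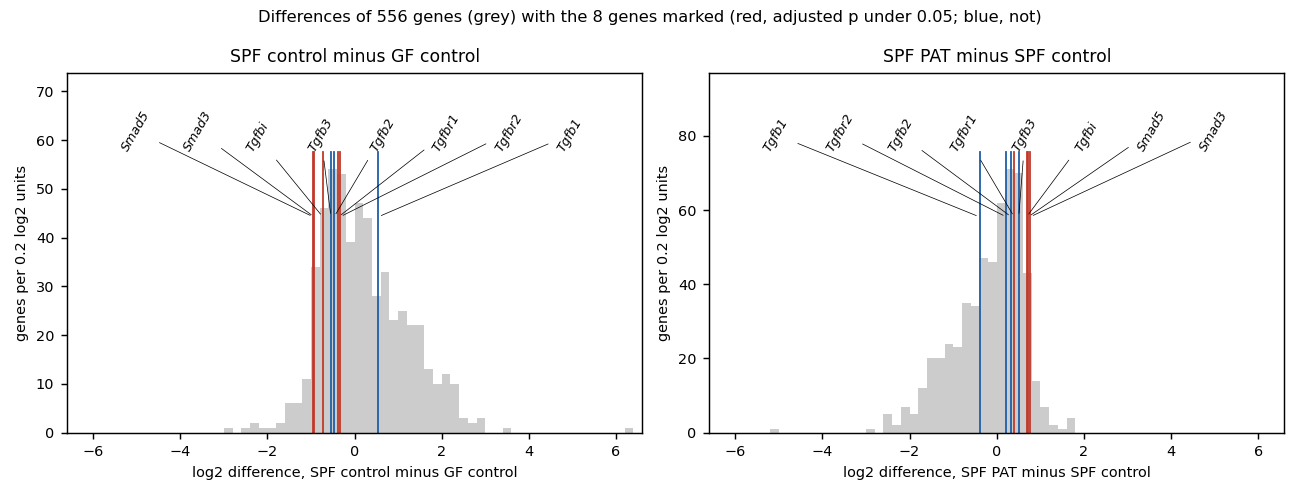
Number of genes (y axis, per 0.2 log2 units) by log2 difference (x axis) for SPF control minus GF control and for SPF PAT minus SPF control; grey bars are all 556 genes and vertical lines are the 8 genes, red with an adjusted p under 0.05 and blue otherwise. Smad3 and Smad5 lie near -0.93 and -0.94 in the first panel and at 0.76 and 0.72 in the second, on the low and the high side of most genes, and Tgfb1 lies on the opposite side of 0 from the other 7 genes in both panels.

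In germ-free mice the same tylosin course was followed by no change that passed the test. In GF PAT mice against GF control mice, limma called 0 of the 8 genes and 0% of all genes, the differences ran from -0.30 for Tgfb3 to 0.34 for Tgfb1, and the smallest adjusted p was 0.693. At an unadjusted p under 0.05 there were 0 of the 8 genes and 28 of all genes (5.04%), and no alternative, voom and the methods' analysis of variance among them, called one of the 8. None of the 8 genes was without overlap between these groups, beside 12.1% of all genes. Smad3 differed by -0.07 (95% confidence interval -0.41 to 0.28), Smad5 by -0.18 (-0.49 to 0.12) and Tgfbi by -0.14 (-0.50 to 0.23), so that changes of the size seen in colonized mice lay outside these intervals for each of these 3 genes. For Tgfb2 and Tgfb3 the intervals, -0.72 to 0.73 and -0.86 to 0.27, were wider.

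The difference between the PAT effects in SPF and GF mice was tested itself, in the same model. It passed for 3 of the 8 genes, all with a more positive effect in SPF mice, beside 17.1% of all genes in either direction and 9.89% with a positive difference. That background was 95 genes, 55 of them positive, and was 35 to 58 genes, 15 to 29 of them positive, when SPF control mouse 2 or 7, SPF PAT mouse 26 or 27, GF control mouse 38 or 39, or GF PAT mouse 41 or 42 was left out, and it was 217 (98 positive) without SPF PAT mouse 21. It was 140 (83 positive) without SPF control mouse 8, 134 (87 positive) under total count scaling and 133 (84 positive) of the 445 genes left by the filter on low means. It was 0.90 for Smad5 (SE 0.19, 95% confidence interval 0.47 to 1.34, adjusted p = 0.0169), 0.83 for Smad3 (SE 0.22, 0.34 to 1.32, adjusted p = 0.0315) and 0.82 for Tgfbi (SE 0.23, 0.30 to 1.33, adjusted p = 0.0396). Tgfbr1, which rose after PAT in SPF mice, had a difference between effects of 0.33 (SE 0.17, adjusted p = 0.155), and its effect was therefore not shown to differ between SPF and GF mice. The differences between effects were 0.30 for Tgfbr2 (adjusted p = 0.151), -0.74 for Tgfb1 (SE 0.28, adjusted p = 0.0907), 0.80 for Tgfb3 (SE 0.36, adjusted p = 0.131) and 0.33 for Tgfb2 (adjusted p = 0.601).

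Quantile normalization ended the call of Tgfbi for the difference between effects (0.31, adjusted p = 0.356). With any single mouse left out, the difference between effects of Smad5 kept its call (adjusted p 0.0134 to 0.0499). Smad3 and Tgfbi lost theirs without SPF control mouse 2 (adjusted p 0.0816 for Smad3 and 0.0928 for Tgfbi), SPF control mouse 7 (0.0678 and 0.0816), SPF PAT mouse 26 (0.0701 and 0.0878) or SPF PAT mouse 27 (0.0740 and 0.0912). They also lost them without GF control mouse 38 (0.0769 and 0.102), GF control mouse 39 (0.0603 and 0.0644), GF PAT mouse 41 (0.0813 and 0.0950) or GF PAT mouse 42 (0.0763 and 0.0822). Without SPF PAT mouse 21, 5 of the 8 genes passed, with Tgfb1 at -0.86 (adjusted p = 0.0459) and Tgfb3 at 1.03 (adjusted p = 0.0376) in addition, and without SPF control mouse 8 Tgfb1 passed at -0.92 (adjusted p = 0.0357).

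**Figure D3:**
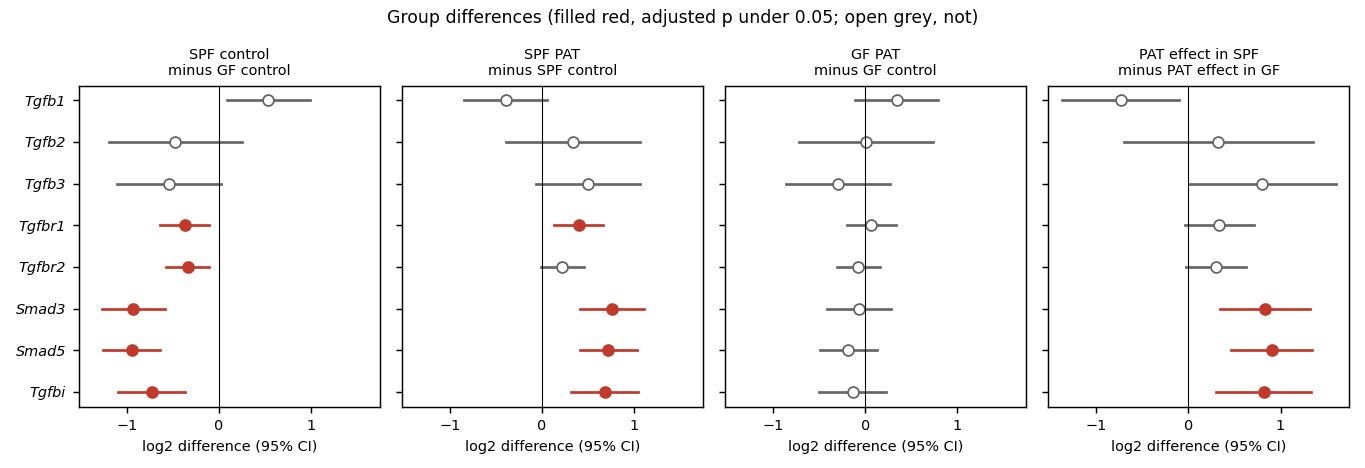
Log2 difference (x axis; point, estimate; line, 95% confidence interval) of the 8 genes (y axis) in the 3 group comparisons and in the difference between the PAT effects; filled red points have an adjusted p under 0.05 and open grey points do not. Intervals of Smad3, Smad5 and Tgfbi lie below 0 for colonization, above 0 for PAT in SPF mice, across 0 for PAT in GF mice, and above 0 for the difference between these effects.

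SPF mice exposed to tylosin were also set against both germ-free groups. Against GF control mice, 0 of the 8 genes passed the limma test, beside 2.16% of all genes, with 0 of the 8 at an unadjusted p under 0.05. The differences ran from -0.23 for Smad5 (SE 0.14, adjusted p = 0.584) to 0.14 for Tgfb1 (SE 0.20, adjusted p = 0.879). Smad5 and Tgfbr2 (difference -0.12, SE 0.10, adjusted p = 0.733) were without overlap, 2 of the 8 genes beside 13.8% of all genes. Of all genes 12 passed the test, 1 to 11 with 1 mouse left out, and 0 after median centring or with only these 2 groups fitted. Against GF PAT mice, 0 of the 8 genes passed, beside 1.44% of all genes, again with 0 of the 8 at an unadjusted p under 0.05, and 0 were without overlap, beside 13.7%. There the differences ran from -0.20 for Tgfb1 (SE 0.20) to 0.26 for Tgfb3 (SE 0.25). Of all genes 8 passed against GF PAT mice, 1 to 11 with 1 mouse left out, and 0 with only these 2 groups fitted. Scaling to the total count without the 10 most abundant genes gave 18. No alternative called one of the 8 in either comparison. For Smad3 the 95% confidence intervals were -0.51 to 0.18 against GF control and -0.44 to 0.25 against GF PAT, and for Smad5 -0.53 to 0.08 and -0.35 to 0.27, so that smaller differences between these groups remain undetermined.

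Since Smad3, Smad5, Tgfbi and Tgfbr1 all fell in SPF control against GF control mice and all rose after PAT in SPF mice, their promoters are shown, together with that of Tgfb1, whose differences had the opposite sign in both. Each sequence is the 250 bases before the start of transcription, the most upstream one for Smad5 and Tgfbr1, which have 3 and 2 starts in the windows used, in the RefSeq annotation of GRCm38.p6, on the gene's own strand, 5′ to 3′, and capitals mark matches, on either strand, to CAGAC (a short site bound by Smads), GGGCGG (the GC box bound by Sp1 factors), TGANTCA (AP-1) or TATAAA (the TATA box). Smad3 lies at chr9:63757995-63758244 (minus strand), Smad5 at chr13:56702760-56703009 (plus), Tgfbi at chr13:56609336-56609585 (plus), Tgfbr1 at chr4:47352972-47353221 (plus) and Tgfb1 at chr7:25686752-25687001 (plus).
Smad3: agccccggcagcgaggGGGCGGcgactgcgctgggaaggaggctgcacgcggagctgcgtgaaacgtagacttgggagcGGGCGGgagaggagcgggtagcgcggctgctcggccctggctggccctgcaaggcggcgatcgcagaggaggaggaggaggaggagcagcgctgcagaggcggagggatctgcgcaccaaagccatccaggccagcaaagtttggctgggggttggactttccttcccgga
Smad5: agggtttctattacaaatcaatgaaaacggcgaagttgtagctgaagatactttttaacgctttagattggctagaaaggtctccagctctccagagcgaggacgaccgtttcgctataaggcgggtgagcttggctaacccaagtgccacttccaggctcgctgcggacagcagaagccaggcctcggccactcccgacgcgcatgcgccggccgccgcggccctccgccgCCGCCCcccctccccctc
Tgfbi: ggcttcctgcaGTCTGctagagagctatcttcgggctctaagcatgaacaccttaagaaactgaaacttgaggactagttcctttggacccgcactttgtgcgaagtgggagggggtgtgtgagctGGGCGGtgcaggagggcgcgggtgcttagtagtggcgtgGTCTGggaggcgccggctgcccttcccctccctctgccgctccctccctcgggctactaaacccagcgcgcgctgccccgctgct
Tgfbr1: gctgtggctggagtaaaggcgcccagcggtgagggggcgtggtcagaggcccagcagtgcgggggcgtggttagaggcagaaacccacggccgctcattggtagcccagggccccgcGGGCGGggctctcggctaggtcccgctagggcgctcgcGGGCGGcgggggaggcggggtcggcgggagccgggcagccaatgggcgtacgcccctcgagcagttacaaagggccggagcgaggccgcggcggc
Tgfb1: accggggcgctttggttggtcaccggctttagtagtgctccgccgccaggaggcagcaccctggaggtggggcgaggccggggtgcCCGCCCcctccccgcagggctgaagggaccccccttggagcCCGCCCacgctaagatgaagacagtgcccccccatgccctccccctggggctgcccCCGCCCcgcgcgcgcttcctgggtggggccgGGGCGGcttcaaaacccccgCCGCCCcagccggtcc

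All 5 of these stretches hold a GC box, with 5 matches in Tgfb1, 2 in Smad3, 2 in Tgfbr1, 1 in Smad5 and 1 in Tgfbi, and Tgfbi alone of the 5 holds CAGAC, with 2 matches. Both statements depend on the start shown: the 250 bases before the last start of Smad5 hold 1 CAGAC and 7 GC boxes, and those before the second start of Tgfbr1 hold 1 CAGAC and 0 GC boxes. Over windows of 300 bases, from 250 before to 50 after the start, 7 of the 8 genes had a window, and some had several starts. GGGCGG was in a window of 5 of these 7 genes and in 35.7% of all 32851 windows, and CAGAC in a window of 5 of the 7 and in 49.6% of all. TATAAA was in that of Tgfb2, and in 13.6% of all windows, and TGANTCA in none of the 7 and in 7.81% of all. Several starts give a gene more than 1 window in which to match, so a gene's share is not directly comparable with that of windows. Smad5 and Tgfbi are neighbours on chromosome 13, at 56703010 to 56742378 and 56609586 to 56639359, both on the plus strand.

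Other genes of the pathway were counted from fixed lists, each without 1 gene that is not reported, so that the counts and medians cover the genes given here. Of 53 partners and regulators of TGF-beta family signalling, 3 had values: Ski, a corepressor that binds Smads, the kinase Mapk14, and Traf6, a ubiquitin ligase that links TGF-beta receptors to p38 kinases such as Mapk14. All 3 fell in SPF control against GF control mice, beside 22.7% of all genes that fell. Ski was at -0.80 (SE 0.13, adjusted p = 0.00103), Traf6 at -0.66 (SE 0.15, adjusted p = 0.00586) and Mapk14 at -0.48 (SE 0.10, adjusted p = 0.00544). Their median difference was -0.66, against 0.08 over all genes. In SPF PAT against SPF control mice, Ski rose by 0.77 (SE 0.13, adjusted p = 0.00383) and Mapk14 by 0.43 (SE 0.10, adjusted p = 0.0164), whereas Traf6 (0.42, adjusted p = 0.0599) did not pass. Of all genes 14% rose in that comparison. The difference between PAT effects passed for Ski (0.86, SE 0.18, adjusted p = 0.0153), beside 9.89% of all genes with a positive difference, and none of the 3 passed for PAT in GF mice.

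Of 32 genes that TGF-beta signalling is known to induce or to work with in T cells and stroma, 9 had values. In SPF control against GF control mice 3 of them rose, 2 fell and 4 did not pass, beside 19.4% of all genes that rose and 22.7% that fell, with a median difference of 0.06. The cytokine Il17a, the product of Th17 cells, rose by 1.68 (SE 0.36, adjusted p = 0.00531), at low normalized counts of 18.5 to 21.6 in SPF control and 3.99 to 10.2 in GF control mice. Runx3, a transcription factor of cytotoxic and innate lymphocytes that works with Smads, rose by 1.46 (SE 0.30, adjusted p = 0.00445), and its relative Runx1 by 0.40 (SE 0.13, adjusted p = 0.0308). The cell cycle inhibitor Cdkn1a fell by 0.63 (SE 0.21, adjusted p = 0.0352) and Ahr, the aryl hydrocarbon receptor, by 0.48 (SE 0.14, adjusted p = 0.0174).

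In SPF PAT against SPF control mice 2 of the 9 genes fell, none rose and 7 did not pass, beside 12.2% of all genes that fell and 14% that rose, with a median difference of 0.0089. Il17a fell by 1.38 (SE 0.36, adjusted p = 0.0217), to low normalized counts of 6.58 to 8.41, and Runx3 fell by 1.03 (SE 0.30, adjusted p = 0.0357). Zeb1, a transcriptional repressor known from epithelial-mesenchymal transition, differed by -0.02 (adjusted p = 0.916) in SPF control against GF control and by 0.27 (SE 0.16, adjusted p = 0.231) after PAT. Foxp3, the factor of regulatory T cells, was measured at a mean normalized count of 11.3 and differed by 0.12 (adjusted p = 0.799) and -0.38 (adjusted p = 0.448) in these comparisons. Fn1, which encodes the matrix protein fibronectin, differed by -0.44 (adjusted p = 0.240) and 0.50 (adjusted p = 0.221). The cytokine Il9 was low as well, at a mean normalized count of 4.85, and differed by 0.06 (adjusted p = 0.926) and 0.0089 (adjusted p = 0.996), which are the medians of the list. The difference between PAT effects passed for Il17a (-1.92, SE 0.51, adjusted p = 0.0322), beside 17.1% of all genes in either direction, and none of the 9 passed for PAT in GF mice.

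**Figure D4:**
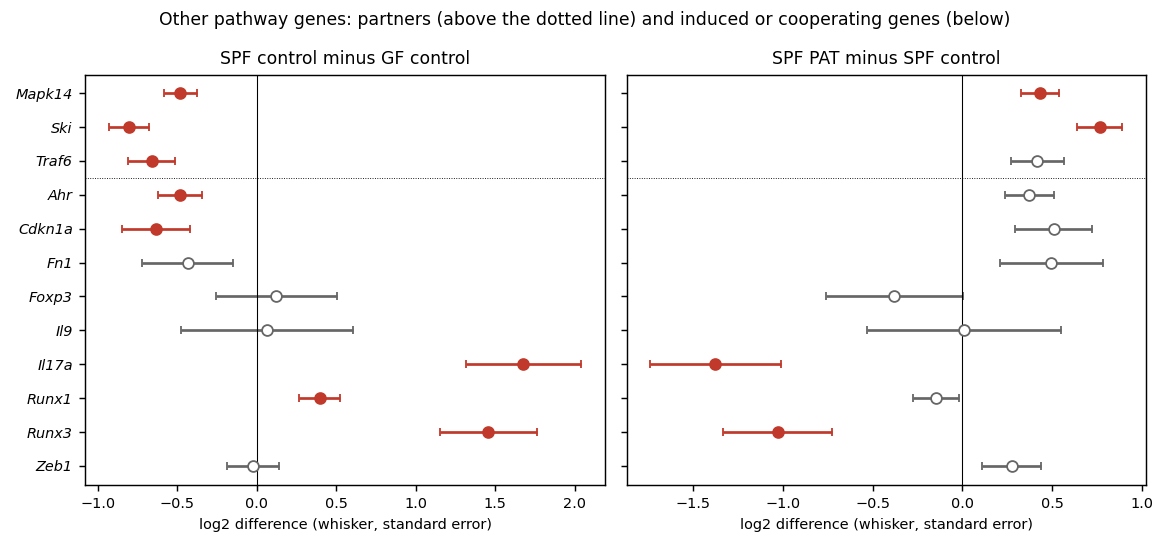
Log2 difference (x axis; point, estimate; whisker, SE) of the 12 other pathway genes reported (y axis) in SPF control minus GF control and in SPF PAT minus SPF control; filled red points have an adjusted p under 0.05. The 3 partners above the dotted line are all below 0 in the first panel and above 0 in the second, while the induced or cooperating genes lie on both sides of 0.

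The 9 epithelial markers with values had mean normalized counts over the 12 mice from 11.0 to 68805. The lowest was Muc1, the next was Cd24a at 2276, and the highest was Itln1, a lectin of goblet and Paneth cells. The small intestinal chemokine Ccl25 had 18769. No marker of the lists that had values was at 0 in any mouse. How far markers differed between the groups varied with the cell type. The 9 T cell markers with values (of 11 listed) had a summed normalized count of 1388 to 2302 in SPF control mice, 471 to 1423 in SPF PAT, 423 to 997 in GF control and 612 to 1219 in GF PAT, and 7 of them rose in SPF control against GF control mice, beside 19.4% of all genes, and 6 fell after PAT in SPF mice, beside 12.2% of all genes. The 10 B cell and follicle markers differed between mice of 1 group: their sum was 7441 and 8376 in SPF control mice 2 and 7 but 1356 in mouse 8, and 6954 in SPF PAT mouse 21 but 995 and 968 in mice 26 and 27. It was 1005 to 4259.7 in GF control and 2444 to 6942 in GF PAT mice. Of these 10 markers 1, Blnk, was higher in SPF control than in GF control mice (0.42, adjusted p = 0.0397), beside 19.4% of all genes. It was lower after PAT in SPF mice (-0.46, adjusted p = 0.0429), beside 12.2% of all genes. SPF control mouse 8 had the lowest T and B cell sums of its group and the group's highest Smad3, Smad5, Tgfbi and Tgfbr1. Its B cell sum was within the range of the GF control mice, whereas its T cell sum of 1388 was above all of them. SPF PAT mouse 21 had the highest T and B cell sums of its group and the group's lowest Smad3, Smad5, Tgfbi and Tgfbr1. GF control mouse 37 had the highest sums of its group and the lowest Smad5, Tgfbi, Tgfbr1 and Tgfbr2, and GF PAT mouse 43 had the lowest sums of its group and the highest Smad3, Smad5, Tgfbi and Tgfbr1. Smad3 of GF control mouse 37 lay between the others of its group, and Tgfbr2 was at its group's lowest in SPF control mouse 8 and at its group's highest in SPF PAT mouse 21. Tgfb1 ran with the sums: in each of the 4 groups the mouse with the highest T and B cell sums (7, 21, 37 and 41) had the highest Tgfb1, and SPF control mouse 8, SPF PAT mouse 27 and GF PAT mouse 43, with the lowest sums of their groups, had the lowest.

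The 9 endothelial and stromal markers with values (of 13) summed to 3201 to 3484 in SPF control, 3778 to 4176 in SPF PAT, 3476 to 4039.5 in GF control and 3519 to 3949 in GF PAT mice. In SPF control against GF control mice 3 of them fell, beside 22.7% of all genes: Kit by 0.80 (adjusted p = 0.00289), Pdgfrb by 0.80 (adjusted p = 0.0107) and Cdh5 by 0.77 (adjusted p = 0.00589). Vcam1 (0.51, adjusted p = 0.241), Icam2 (0.43, adjusted p = 0.292), Thy1 (0.20, adjusted p = 0.460) and Cxcl12 (0.05, adjusted p = 0.779) had positive differences and did not pass. Kit, a marker of interstitial cells of Cajal and mast cells, and Pdgfrb, a marker of pericytes, rose after PAT in SPF mice by 0.70 (adjusted p = 0.0102) and 0.76 (adjusted p = 0.0224), beside 14% of all genes. Vcam1 (-0.39), Icam2 (-0.26) and Thy1 (-0.27) had negative differences there and did not pass. The 9 epithelial markers with values (of 20) summed to 159855 to 192810 in SPF control, 158809 to 242597 in SPF PAT, 186274 to 220362 in GF control and 163304 to 190891 in GF PAT mice. Of these 4 fell in SPF control against GF control mice (Abcb1a, Mme, Dpp4 and Ccl25, from -2.82 to -1.08), beside 22.7% of all genes. In the same comparison 1 rose (Pigr, 0.77, adjusted p = 0.0257), beside 19.4% of all genes. The first 4 rose after PAT in SPF mice, beside 14% of all genes. The 10 macrophage, monocyte and dendritic cell markers with values (of 14) summed to 2780 to 3370 in SPF control, 2275 to 2775 in SPF PAT, 1948 to 2587 in GF control and 2110 to 2305 in GF PAT mice. Of them 3 were higher and 1 lower in SPF control than in GF control mice, beside 19.4% and 22.7% of all genes. After PAT in SPF mice 1, Itgam, was lower (-0.90, SE 0.28, adjusted p = 0.0440), beside 12.2% of all genes. The part of these markers in the differences of the 8 genes was not tested.

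**Figure D5:**
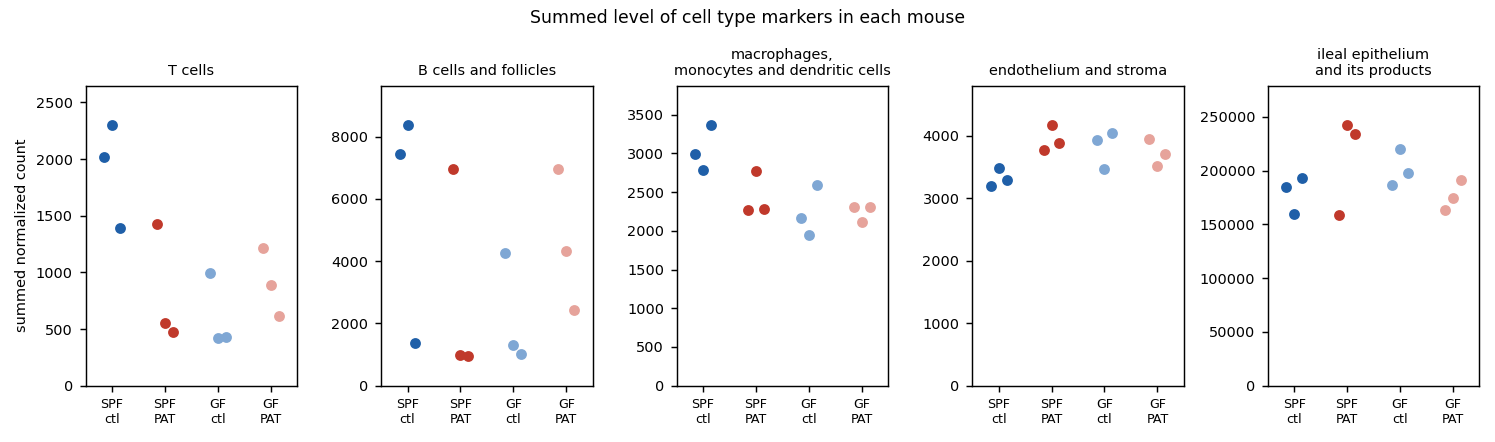
Summed normalized count of the markers of 5 cell types (y axis, linear from 0, a separate scale for each panel) in each of the 12 mice, by group on the x axis (ctl, control); points are mice. T cell sums are highest in SPF control mice, with SPF PAT mouse 21 at 1423 above SPF control mouse 8 at 1388, and B cell and follicle sums spread widely within groups.

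Within the pathway, the members whose patterns over the 12 mice lay closest were Smad3 and Smad5. The measure is the root mean square difference of log2 values after centring each gene on its own mean, and it was 0.11 for this pair, 0.11 for Smad3 with Tgfbi and 0.14 for Smad5 with Tgfbi. Smad3 itself deviated from its mean by 0.40 on this measure, so the pairs shared most of their variation. Tgfb1 lay 0.37 to 0.64 from the other 7 genes. Among the 437 other genes searched, the 2 nearest to Smad5 were App, the amyloid precursor protein (0.057), and Igf2r, a sorting receptor for lysosomal enzymes and Igf2 (0.066), and those nearest to Smad3 were Igf2r (0.088) and the epithelial chemokine Ccl25 (0.098). Tgfbi was nearest to the cytokine receptor chains Il10rb (0.091) and Ifngr2 (0.091). Tgfbr1 was nearest to the autophagy gene Atg16l1 (0.065) and the phosphatase Phlpp1 (0.078), and Tgfbr2 to Stat5a (0.077) and Notch2 (0.10). Both receptors varied little, with deviations from their own means of 0.20 for Tgfbr1 and 0.14 for Tgfbr2, so that a gene of constant level would lie that near to them. These distances describe 12 mice in 4 groups and carry no test.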

How the data were processed

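The ileal RNA of 12 mice was hybridized to reporter probes of a NanoString nCounter panel of mouse immunology genes, and the probes were counted without reads or alignment. The authors normalized the counts with DESeq2 (version not given in the sources used here) and deposited them as log2 values. Of 584 entries, 556 genes hold values and 28 control or reference entries hold none. With 1 size factor per mouse (0.83 to 1.25), all values gave whole counts within 0.01, and 1 to 8 genes per mouse were at a count of 0, which is 0 on the deposited log2 scale. The extraction is TRIzol and RNeasy in the labels and another kit in the methods.

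The log2 values were fitted with limma 3.58.1 in R 4.3.3 (lmFit and eBayes, 1 mean per group, all 12 mice, no covariate, Benjamini-Hochberg over 556 genes for each comparison, threshold 0.05). The fit was tested on simulated data, and no outcome of that test is given here. The 8 genes, the gene lists and the markers were chosen with earlier results of these data known. A further gene of each pathway list is not reported here and is left out, so counts and medians of these lists cover the other genes only. Genes of the lists were named when past the threshold in SPF control against GF control or in SPF PAT against SPF control, with up to 4 others by smallest p, and the nearest genes were taken from those with a mean normalized count of at least 20. Alternatives were the methods' analysis of variance with Tukey HSD, an intensity trend, robust estimation, voom on the recovered counts, a fit to the 2 groups of a comparison, a filter at a mean normalized count of 20, centring on medians, quantile normalization, total count scaling, a pseudocount of 1 and leaving out each mouse. Total count scaling without the 10 most abundant genes was chosen after seeing the data. All 8 symbols matched RefSeq (GRCm38.p6), which also gave positions and promoter sequences.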

Additional observations from a re-analysis of the deposited data

Results flagged for a closer look

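For 3 of the 8 genes the effect of PAT in SPF mice and the effect of PAT in GF mice differed in a test of that difference itself (limma, adjusted over 556 genes), beside 17.1% of all genes in either direction and 9.89% with a positive difference. The difference between effects was 0.90 for Smad5 (adjusted p = 0.0169), 0.83 for Smad3 (adjusted p = 0.0315) and 0.82 for Tgfbi (adjusted p = 0.0396), on the log2 scale. In each of them all 3 SPF PAT mice were above all 3 SPF control mice, and GF PAT mice overlapped with GF control mice. The calls of Smad3 and Tgfbi were lost with 8 of the 12 mice left out in turn, and that of Tgfbi also under quantile normalization (0.31, adjusted p = 0.356).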

How the results depend on the processing

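No paired analysis was possible because each group holds different mice, whose numbers in the labels tie no mouse to one of another group. Of the 8 genes, 5 were called in SPF control against GF control (of all 556 genes, 234), 3 with only these 2 groups fitted (199 of all), 3 under quantile normalization (209 of all), and 3 to 6 with 1 mouse left out (169 to 259 of all). In SPF PAT against SPF control 4 were called (146 of all), 2 under the methods' analysis of variance with Tukey HSD (55 of 555 genes tested), 1 with only these 2 groups fitted (76 of all), and 2 to 6 with 1 mouse left out (64 to 232 of all). For the difference between PAT effects 3 were called (95 of all), and 1 to 5 with 1 mouse left out (35 to 217 of all). The fit to 2 groups could not be run for this difference. The other 3 comparisons called none of the 8 under the settings tried. Median centring moved every difference of the 8 genes by -0.44 in SPF control against GF control, 0.36 in SPF PAT against SPF control, -0.19 in GF PAT against GF control and 0.54 in the difference between effects, whereas scaling to total counts, with or without the 10 most abundant genes, moved them by 0.18 or less. Quantile normalization moved the 8 genes by unequal amounts, from -0.59 to 0.53 in SPF control against GF control, from -0.32 to 0.50 in SPF PAT against SPF control and from -0.51 to 0.81 in the difference between effects. No called member changed sign under any of the 23 alternatives. Of 1096 alternative values of the 48 differences, 38 changed sign, all of them values that passed no test. With 3 mice per group, 95% intervals of log2 differences reached 0.23 to 0.72 to either side between groups and 0.33 to 1.02 for the difference between effects, and the low counts of Tgfb2 and Tgfb3 limit both genes.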
